A study of Mus musculus with 24 samples.

Results

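The 5 carbonic anhydrase genes, Car2, Car3, Car5a, Car8 and Car14, were followed across RNA-seq of mouse livers after a 24 h fast. They are 5 of the 16 genes of the family in the count table, which lists 54532 genes in all, and they were selected by name on their values in double knockout against control livers, where Car14 had the smallest p. That contrast is therefore given below as a description, without a test. Libraries came from 24 male mice aged 8 to 10 weeks, with 4 livers in each of 6 groups. The Rab30L-/- and Cpt2L-/- livers carried floxed Rab30 or floxed Cpt2 together with Cre from the albumin promoter, which acts in hepatocytes. The DKO livers carried both floxed genes with that Cre, and the ff;ff livers were littermates of the DKO mice with both floxed genes and no Cre. In Rab30KO mice exon 4 of Rab30 was deleted in every tissue, and Rab30 Ctrl mice were their wild-type littermates. Cpt2 encodes carnitine palmitoyltransferase 2, which mitochondria need to oxidize long-chain fatty acids, and Rab30 encodes a small GTPase of the Golgi. No control littermates of the Rab30L-/- or the Cpt2L-/- mice were analysed here.

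Carbonic anhydrases catalyse the reversible hydration of carbon dioxide to bicarbonate and a proton. In hepatocytes the mitochondrial form, Car5a, supplies bicarbonate to carbamoyl phosphate synthetase (Cps1), the entry of ammonia into the urea cycle, and to pyruvate carboxylase (Pcx), the first step of gluconeogenesis from pyruvate. Car2 is a very active cytosolic form, whereas Car3 is a cytosolic form of low activity that is abundant in muscle, fat and male rodent liver. Car14 is held in the plasma membrane with its catalytic domain outside the cell. Car8 lacks catalytic activity and binds the IP3 receptor, a calcium channel of the endoplasmic reticulum.

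The promoters of Car5a and Car14, the 2 members that passed the interaction test below, are shown because they were the 2 of 5 members with an entry in the promoter table. The sequences are RefSeq's for build GRCm38.p6, from 250 bases before to 50 bases after the annotated start, and the capitals mark the 50 bases after it. Car5a lies on chr8:121944863-121945162 and Car14 on chr3:95904636-95904935, both on the minus strand.
Car5a: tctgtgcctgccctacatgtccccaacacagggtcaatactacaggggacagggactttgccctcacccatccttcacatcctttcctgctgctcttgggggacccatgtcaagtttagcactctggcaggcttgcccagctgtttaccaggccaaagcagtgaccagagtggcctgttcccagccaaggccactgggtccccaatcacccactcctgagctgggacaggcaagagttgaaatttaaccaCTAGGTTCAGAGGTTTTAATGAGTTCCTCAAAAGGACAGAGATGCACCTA
Car14: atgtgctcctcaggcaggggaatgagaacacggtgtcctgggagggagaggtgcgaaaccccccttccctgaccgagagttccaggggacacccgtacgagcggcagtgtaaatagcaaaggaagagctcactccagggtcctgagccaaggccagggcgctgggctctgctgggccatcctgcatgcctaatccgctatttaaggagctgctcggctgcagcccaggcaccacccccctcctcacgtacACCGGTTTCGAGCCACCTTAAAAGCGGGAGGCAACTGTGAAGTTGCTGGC
G and C made up 53.7% of the Car5a window and 61.0% of the Car14 window, against a median of 53.0% over 32544 promoters. Both strands were searched for AGGTCA, the half-site of nuclear receptors, for TTCNNNGAA, bound by STAT factors, for CAAAGTCCA, bound by Hnf4a, and for TATAAA, the TATA box. Neither window held any of these letters, which occurred in 16.2%, 8.3%, 0.5% and 13.6% of all promoters.

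Libraries held 11801027 to 24497738 counts, and every one of the 36 pairs of libraries within a group differed by more than counting noise. The targeted genes checked the labels only in part. In Cpt2L-/- against Rab30L-/- livers Cpt2 fell by 0.80 (edgeR adjusted p = 0.00494) and Rab30 rose by 3.08 on the log2 scale (edgeR adjusted p = 4.15e-05), the directions the labels give. Against ff;ff livers Rab30, which the labels give as intact there, rose by 1.99 in Cpt2L-/- (edgeR adjusted p = 2.66e-05) and Cpt2 had a log2 fold change of 0.73 in Rab30L-/- (edgeR adjusted p = 0.0772). In these contrasts Cpt2 had a log2 fold change of -0.07 in Cpt2L-/- (edgeR adjusted p = 0.788) and Rab30 one of -1.10 in Rab30L-/- (edgeR adjusted p = 0.174). Rab30 overlapped between Rab30KO, at 5.47 to 17.1 CPM (counts relative to library size, scaled by TMM), and Rab30 Ctrl, at 6.53 to 29.8 CPM. Rab30 stood at 102 to 232 CPM in the libraries labelled DKO and at 26.4 to 45.5 CPM in those labelled ff;ff, but the deleted exon 4 makes up only 184 of the 9456 bases of its longest transcript. Cpt2 stood at 97.1 to 125 CPM in DKO and 129 to 142 CPM in ff;ff libraries, and the deleted part of Cpt2 is not given in the sources used here. Groups are therefore named by their labels throughout. Hepatocyte markers (5 of 6 matched) summed to at least 36635 CPM in every library.

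Set per kilobase of transcript (FPKM), the family was made up differently in the groups. In ff;ff livers Car3 had the highest mean of the 5 members, at 99.0 ± 94.4 FPKM (SD, n = 4), followed by Car5a at 37.6 ± 9.26 FPKM, Car14 at 25.5 ± 3.19 FPKM, Car8 at 13.6 ± 3.75 FPKM and Car2 at 1.91 ± 0.33 FPKM, with Car1 outside the members at 3.83 ± 2.80 FPKM. Car3 stood at 98.0, 233, 30.8 and 34.3 FPKM in the ff;ff libraries, below Car5a in replicate 3 (42.5 FPKM) and above it in the others. In Cpt2L-/- livers Car2 led instead, at 8.19 ± 0.81 FPKM, ahead of Car3 at 6.05 ± 2.17 FPKM and Car8 at 3.32 ± 0.48 FPKM. Car2 thus went from 1.25% ± 0.61 of the family's summed FPKM in ff;ff to 35.5% ± 8.84 in Cpt2L-/- and 22.6% ± 5.03 in DKO livers (SD, n = 4). The sum over all 16 genes was 183 ± 100.4 FPKM in ff;ff, 23.6 ± 3.47 FPKM in Cpt2L-/- and 43.6 ± 6.09 FPKM in DKO livers. Without Car3, whose level varied most between libraries, the sum was 83.6 ± 8.94 FPKM in ff;ff and 17.6 ± 1.71 FPKM in Cpt2L-/- livers, and the DKO libraries lay between them at 25.1 to 33.0 FPKM.

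**Figure D1:**
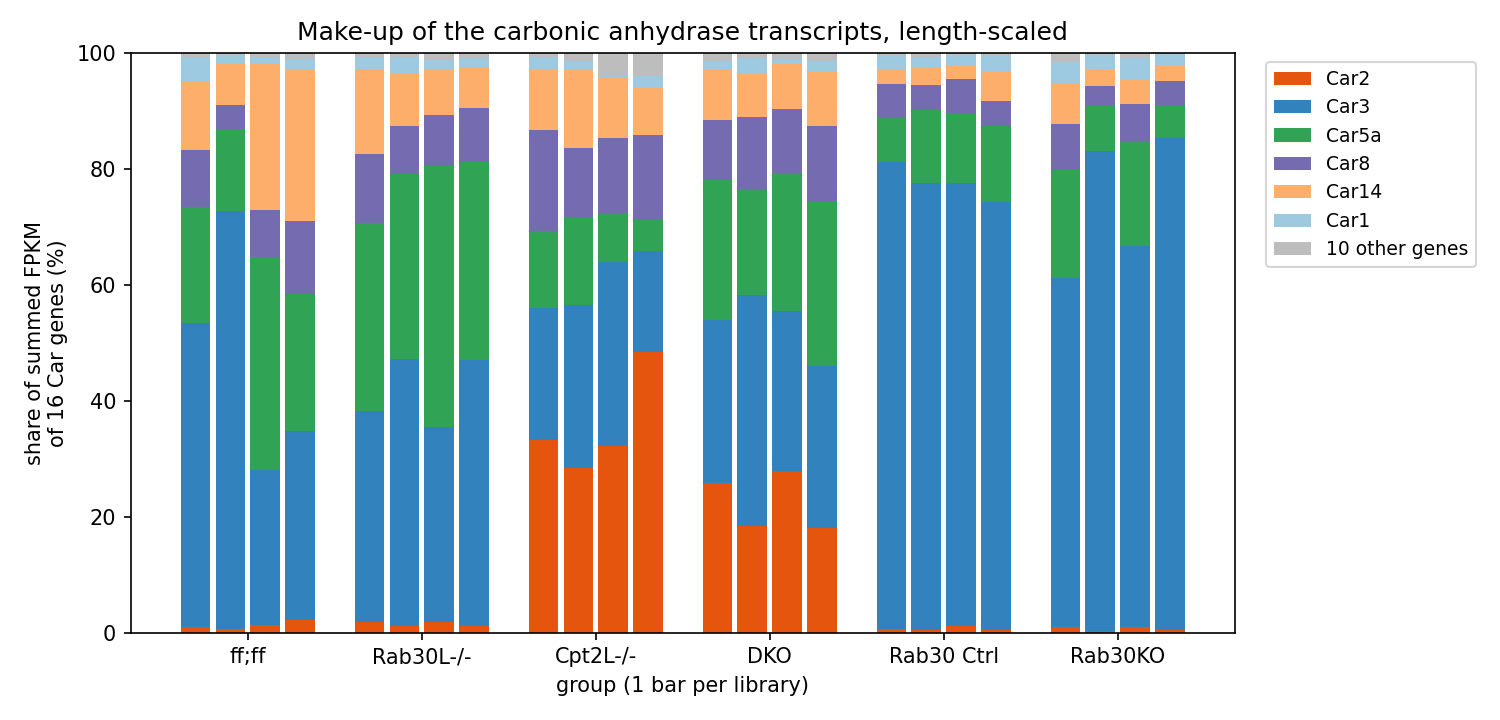
Share of each carbonic anhydrase gene (%, y axis) in the summed FPKM of the 16 genes, with 1 bar for each library and 4 bars for each group (x axis). Car2 takes 28.4% to 48.4% in the Cpt2L-/- bars and at most 2.09% in the ff;ff bars, where Car3 takes 26.7% to 72.1%.

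Of the remaining 11 genes of the family, Car1 alone had a group mean above 4 CPM. Car1, the major form of red cells, reached a mean of 14.1 CPM in Rab30KO livers, and Car5b, a mitochondrial form found in many tissues, 3.71 CPM there. Per length, Car1 had a higher mean than the member Car2 in Rab30KO livers, at 11.3 against 2.43 FPKM. Car7 reached 1.36 CPM and Car11 1.23 CPM, also in Rab30KO livers. Car13, Car15, Car9 and Car4 had group means of at most 0.613, 0.573, 0.302 and 0.153 CPM. Group means of Car6, Car10 and Car12 were at most 0.0105, 0.0218 and 0.0339 CPM. A count of 0 in a library allows 3 counts, which is 0.126 to 0.262 CPM by library and covers counting error only, so levels of these genes could not be compared at this depth.

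Car5a, the mitochondrial form, was at 4.04, 5.54, 2.78 and 1.37 CPM in the 4 Cpt2L-/- libraries and at 14.3, 11.6, 10.9 and 17.2 CPM in the DKO libraries. The ff;ff libraries held 48.9, 60.1, 55.6 and 33.0 CPM, and the Rab30L-/- libraries 46.9, 65.5, 73.2 and 71.0 CPM. In Rab30 Ctrl it was at 41.6, 69.9, 56.8 and 62.5 CPM, and in Rab30KO at 47.5, 67.4, 52.1 and 57.1 CPM. The Cpt2L-/- libraries were thus lowest and the DKO libraries next, with no overlap between these or with any other group, while the other 4 groups overlapped. Fewer cells with a transcript and less of it per cell cannot be told apart in whole liver RNA.

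Car14, the membrane form, was at 5.96, 9.32, 6.54 and 3.93 CPM in Cpt2L-/- and at 9.84, 9.10, 6.70 and 10.8 CPM in DKO libraries. These 2 groups overlapped each other and lay below every other library. It was highest in ff;ff, at 56.0, 57.6, 71.9 and 69.0 CPM, above every library of the other groups. Rab30L-/- libraries held 40.4, 35.8, 23.9 and 27.9 CPM. Rab30 Ctrl libraries held 25.1, 31.7, 19.0 and 45.6 CPM, and Rab30KO libraries 34.7, 47.3, 23.2 and 50.1 CPM. Rab30KO, Rab30L-/- and Rab30 Ctrl overlapped one another, so the 2 control groups, ff;ff and Rab30 Ctrl, did not share a level of Car14.

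Car3, the cytosolic form of low activity, was at 14.7, 22.0, 22.3 and 9.55 CPM in Cpt2L-/- and at 35.9, 54.1, 27.0 and 36.1 CPM in DKO libraries. In Rab30L-/- it was at 113, 202, 117 and 205 CPM, and in ff;ff at 276, 652, 86.2 and 97.6 CPM. Cpt2L-/- and DKO libraries were the lowest and did not overlap. Rab30 Ctrl libraries were close together at 921, 916, 760 and 754 CPM, whereas Rab30KO libraries lay at 328, 1546, 402 and 1795 CPM. Spread within a group was therefore wide in ff;ff and in Rab30KO, and Rab30 Ctrl lay above every ff;ff library.

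Car8, the inactive form that binds the IP3 receptor, was at 15.1, 12.5, 12.1 and 10.9 CPM in Cpt2L-/- and at 17.8, 22.5, 14.6 and 22.7 CPM in DKO libraries. It was at 70.2, 50.1, 35.3 and 50.5 CPM in ff;ff and at 49.4, 48.9, 40.8 and 56.1 CPM in Rab30L-/- libraries. Cpt2L-/- and DKO libraries overlapped in 1 range, below every library of the other groups. Rab30 Ctrl libraries held 86.1, 67.5, 78.4 and 60.6 CPM and Rab30KO libraries 57.8, 89.3, 51.9 and 114 CPM.

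Car2, the very active cytosolic form, went the other way. It was at 18.2, 18.7, 19.0 and 22.5 CPM in Cpt2L-/- and at 27.8, 21.2, 23.0 and 19.7 CPM in DKO libraries. It was at 4.37, 5.09, 3.49 and 5.27 CPM in ff;ff and at 4.68, 4.29, 5.37 and 4.10 CPM in Rab30L-/- libraries. All 8 libraries of Cpt2L-/- and DKO lay above the 16 others, of which the highest was a Rab30 Ctrl library at 9.17 CPM. How many of all genes split these 8 libraries from the 16 others was not counted, for Car2 or for the members above. The split also holds the DKO and ff;ff libraries on which the genes were selected. Rab30KO libraries held 4.45, 5.61, 5.05 and 8.41 CPM, within the range of the controls.

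**Figure D2:**
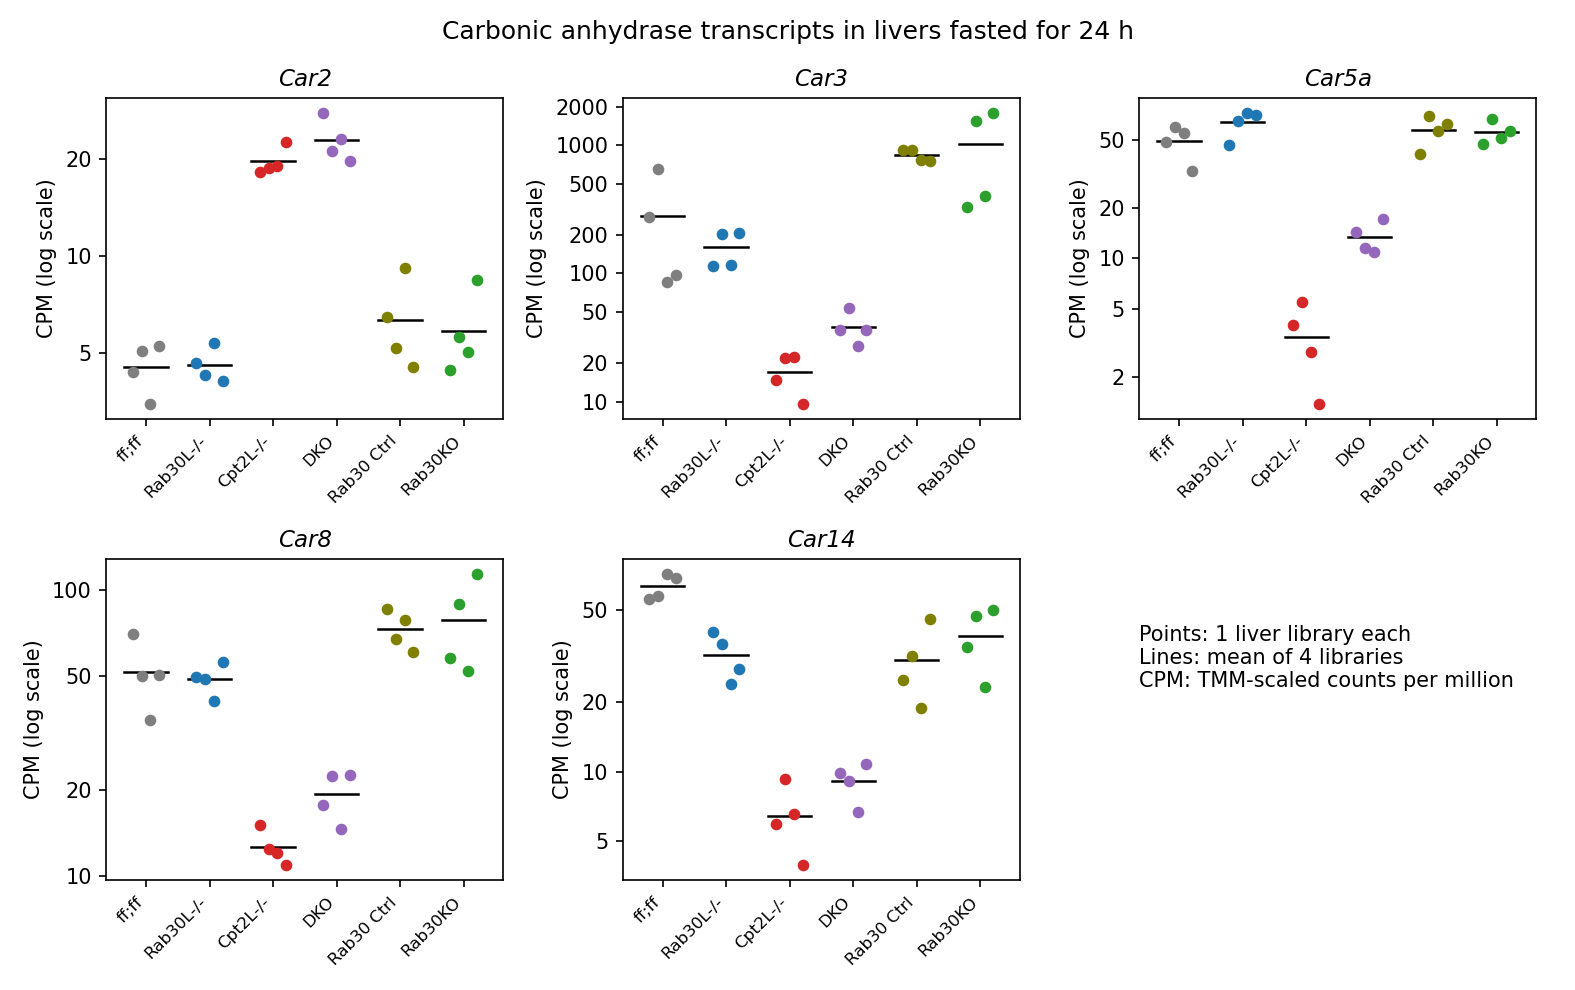
Level of each of the 5 genes (TMM-scaled CPM, log axis) in the 24 libraries, by group; points are libraries and lines the means of 4. Cpt2L-/- and DKO libraries lie below all others for Car3, Car5a, Car8 and Car14 and above all others for Car2. The share of all genes with such a split was not counted, and the DKO and ff;ff libraries served to select the genes.

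Livers labelled Cpt2L-/- were compared with livers labelled Rab30L-/-, a contrast that holds no library of the contrast used to select the genes. These groups differ in both deletions, so no value here can be assigned to Cpt2 or to Rab30 alone. That holds as well for the other genes and the markers given below for this contrast. Car2 rose and Car3, Car5a, Car8 and Car14 fell in Cpt2L-/- livers. Tests were edgeR's quasi-likelihood tests on counts, with Benjamini-Hochberg adjustment over all genes tested, and a gene passed with an adjusted p under 0.05 and a change of at least 1.2-fold. All 5 members passed, where 31.4% of the 13359 genes tested passed, 16% lower and 15.3% higher. Car5a fell by 4.22 on the log2 scale (standard error 0.35, edgeR adjusted p = 2.84e-05), from a mean of 64.1 to 3.43 CPM. Car3 fell by 3.23 (standard error 0.33, edgeR adjusted p = 9.59e-05) and Car14 fell by 2.32 (standard error 0.25, edgeR adjusted p = 6.44e-05). Car8 fell by 1.95 (standard error 0.15, edgeR adjusted p = 2.44e-06). Car2 rose by 2.07 on the same scale (standard error 0.15, edgeR adjusted p = 1.88e-06), from 4.61 to 19.6 CPM. For each of the 5 genes the 4 libraries of one group lay apart from the 4 of the other, as was so for 31.1% of the genes tested.

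Of the 3 other family genes tested in this contrast, 2 passed, both lower. Car1 fell by 2.98 (standard error 0.45, edgeR adjusted p = 0.000361) and Car5b fell by 1.98 (standard error 0.43, edgeR adjusted p = 0.00399), each from a mean below 4 CPM. With a library left out, Car5b gave -2.65 to -1.75 (edgeR adjusted p of at most 0.0185). Car7 had a log2 fold change of -1.08 (adjusted p = 0.158). The median log2 fold change was -2.32 over the 5 members and 0.00 over all genes tested.

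Against ff;ff livers the Cpt2L-/- livers gave the same directions, but these ff;ff libraries also served to select the genes. All 5 members passed, beside 23.8% of 13270 genes, 11.9% lower and 11.9% higher. Log2 fold changes were -4.04 for Car3 (standard error 0.78, edgeR adjusted p = 0.00942), -3.86 for Car5a (0.36, edgeR adjusted p = 2.86e-05) and -3.32 for Car14 (0.23, edgeR adjusted p = 1.63e-06). They were -2.04 for Car8 (0.20, edgeR adjusted p = 2.05e-05) and 2.09 for Car2 (0.18, edgeR adjusted p = 7.25e-06). Without ff;ff replicate 2, the library with the highest Car3, the log2 fold change of Car3 was -3.17. Car1 and Car5b, the 2 other family genes tested, were also lower, by log2 fold changes of -3.43 and -2.20 (edgeR adjusted p = 0.00162 and 0.00331). Leaving out a library gave -2.87 to -1.98 for Car5b (edgeR adjusted p of at most 0.0157).

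DKO livers were compared with ff;ff livers in the contrast on which the genes were selected. Car2 was 4.99-fold higher in DKO (log2 fold change 2.32), and Car3, Car14, Car5a and Car8 were lower, with log2 fold changes of -2.87, -2.81, -1.88 and -1.41. Without ff;ff replicate 2 the value of Car3 was -2.01, nearer to 0 than that of Car14. In this contrast 16.1% of 13389 genes passed the thresholds and 20.5% had groups that did not overlap, as was so for all 5 members.

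DKO livers were also set against Cpt2L-/- livers, to ask how livers labelled with both deletions differed from those with the deletion of Cpt2 alone. Rab30 itself had a log2 fold change of 0.15 in this contrast (edgeR adjusted p = 0.763). These DKO libraries also served to select the genes. Car5a rose by 1.98 on the log2 scale (standard error 0.34, edgeR adjusted p = 0.0181), from 3.43 to 13.5 CPM, and was the 1 member of 5 to pass, where 2.71% of 13306 genes passed. Without Cpt2L-/- replicate 3 its adjusted p was 0.0555. The DKO mean of Car5a was still below each library of the 4 groups without a deletion of Cpt2. Car3 had a log2 fold change of 1.17 (standard error 0.28, edgeR adjusted p = 0.0614) and Car8 one of 0.63 (standard error 0.17, edgeR adjusted p = 0.0707). Both passed in DESeq2 (adjusted p = 0.00156 and 0.0197), in limma-voom (0.0129 and 0.0236) and without DKO replicate 3 (0.0405 and 0.0342), and Car8 also without a low-count filter (0.0212). Neither passed in the 7 other fits that left out 1 library, where adjusted p reached 0.137 and 0.210, or in 1 fit over all libraries (0.356 and 0.197). Log2 fold changes of Car14 and Car2 were 0.51 (95% interval -0.03 to 1.05, edgeR adjusted p = 0.256) and 0.23 (95% interval -0.07 to 0.54, edgeR adjusted p = 0.352).

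Deletion of Rab30 alone was examined in 2 contrasts. Between Rab30KO and Rab30 Ctrl, which share no library with the other contrasts, none of the 5 members passed, beside 0.022% (3 of 13656 genes). The 95% interval of the log2 fold change was -0.44 to 0.35 for Car5a, -0.43 to 0.62 for Car8, -0.74 to 0.52 for Car2, -0.30 to 1.01 for Car14 and -0.93 to 1.49 for Car3. The smallest unadjusted edgeR p of the 5 was 0.26, for Car14, and none passed in DESeq2 or limma-voom.

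Between Rab30L-/- and ff;ff livers 1 member of 5 passed, beside 0.479% of 13367 genes. Car14 fell by 0.998 on the log2 scale (standard error 0.18, edgeR adjusted p = 0.0352), from 63.6 to 32.0 CPM, and these ff;ff libraries also served to select it. Its adjusted p lay between 0.0194 and 0.133 with each library left out and passed in 2 of these 8 fits. It was 0.0847 in a fit over all 24 libraries and 0.0511 with at least 10 counts in every library. The 95% interval was -0.07 to 0.81 for Car5a, -0.50 to 0.34 for Car8, -0.48 to 0.50 for Car2 and -2.39 to 0.76 for Car3. The log2 fold change of Car3 was -0.82 and turned to 0.06 without ff;ff replicate 2.

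**Figure D3:**
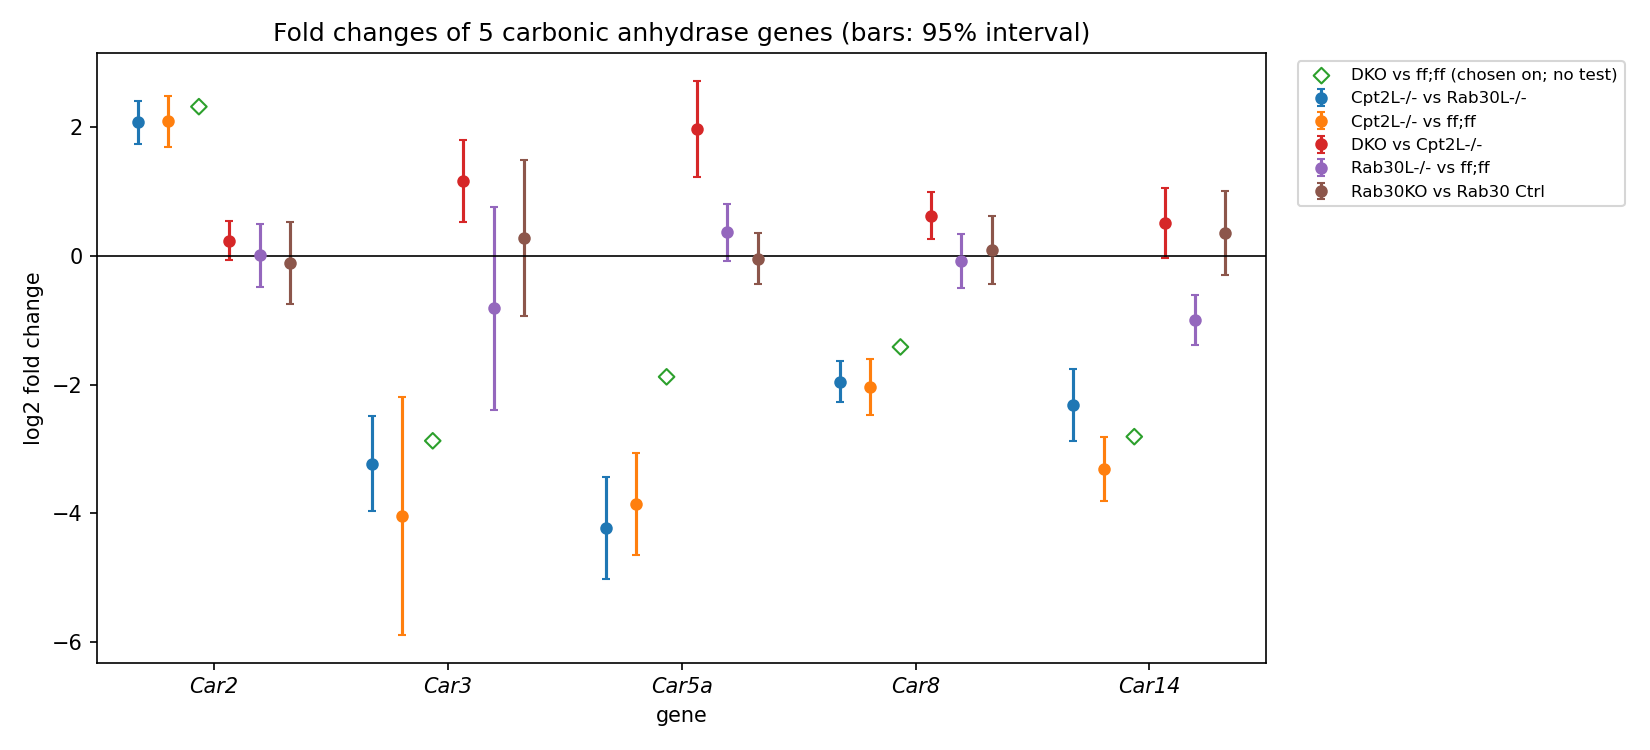
Log2 fold change (y axis) of the 5 genes (x axis) in 6 comparisons; filled points are edgeR estimates with 95% intervals, and open diamonds show DKO against ff;ff without a test. Intervals of Cpt2L-/- against Rab30L-/- and against ff;ff exclude 0 for every gene, from -4.22 for Car5a to 2.09 for Car2, and all those of Rab30KO against Rab30 Ctrl include 0. The ff;ff libraries also served to select the genes.

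Whether the genes moved differently with the deletion of Rab30 in livers labelled with and without that of Cpt2 was tested by an interaction over 16 libraries, the log2 change from Cpt2L-/- to DKO less that from ff;ff to Rab30L-/-. Car14 and Car5a passed, beside 4.06% of 14063 genes, and the 8 libraries of DKO and ff;ff that served to select the genes were part of the fit. Of the markers of other cells and of hepatocytes, 1 of 5 hepatocyte markers passed (Alb, at 1.04, edgeR adjusted p = 0.0215, with a list median of 0.02) and 1 of 4 stellate markers (Colec11, at -1.15, edgeR adjusted p = 0.0448, with a list median of -0.37). Cpt2 itself passed, at -0.99 (edgeR adjusted p = 0.0191), and the part of these genes in the values of the members was not tested. The difference was 1.51 for Car14 (standard error 0.31, edgeR adjusted p = 0.0116), with an adjusted p of at most 0.0279 when any 1 library was left out. For Car14 it joined a log2 fold change of -0.998 from ff;ff to Rab30L-/- with a change of 0.51 from Cpt2L-/- to DKO that did not pass. The difference was 1.62 for Car5a (standard error 0.41, edgeR adjusted p = 0.0347). It passed in 6 of the 16 fits that left out 1 library, with an adjusted p of at most 0.0778. The difference was 1.99 for Car3 (standard error 0.79, adjusted p = 0.165; 1.12 without ff;ff replicate 2), 0.71 for Car8 (standard error 0.27, adjusted p = 0.130) and 0.22 for Car2 (standard error 0.23, adjusted p = 0.601).

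Car1, Car3 and Car2 are neighbours, which makes their opposite directions a comparison within 1 stretch of chromosome 3 (GRCm38). Car13 and Car2 bound a cluster of 259044 bases, and Car13, at a low level, was not tested. Car3 (ENSMUSG00000027559, 14863512 to 14872523, plus strand) is followed after 13749 bases by Car2 (ENSMUSG00000027562, 14886273 to 14900770, plus strand). Car1 (ENSMUSG00000027556, 14766216 to 14808368, minus strand) ends 55143 bases before Car3. In Cpt2L-/- against Rab30L-/- livers Car1 and Car3 fell by 2.98 and 3.23 on the log2 scale, and Car2 rose by 2.07.

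**Figure D4:**
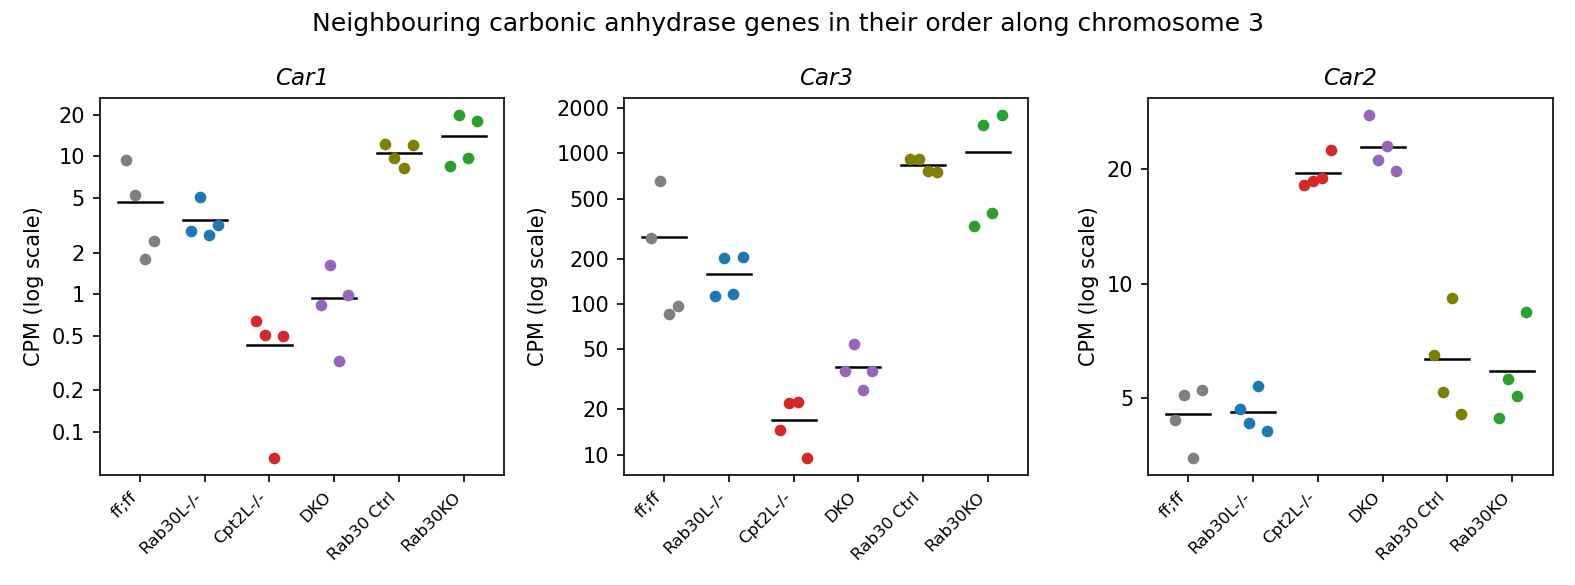
Level of Car1, Car3 and Car2 (TMM-scaled CPM, log axis) by group, in their order along chromosome 3; points are libraries and lines the means of 4. Cpt2L-/- libraries are at 0.0648 to 0.641 CPM for Car1 and 9.55 to 22.3 CPM for Car3, below all libraries outside Cpt2L-/- and DKO, and at 18.2 to 22.5 CPM for Car2, above them.

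The other members lie apart from this cluster. Car14 (ENSMUSG00000038526) is on chromosome 3 from 95897768 to 95904691, Car5a (ENSMUSG00000025317) on chromosome 8 from 121916126 to 121944904 and Car8 (ENSMUSG00000041261) on chromosome 4 from 8143362 to 8239041, all on the minus strand. Car14 shares 521 bases with Aph1a and Car5a shares 3565 bases with BC048644, both on the opposite strand. Whether the counting used strand is not given in the sources used here, so reads in these stretches may belong to either gene. In Cpt2L-/- against Rab30L-/- livers Aph1a fell by 0.75 (standard error 0.12, edgeR adjusted p = 0.000681) and BC048644 fell by 3.47 (standard error 0.38, edgeR adjusted p = 4.50e-05). BC048644 was at most 11.7 CPM in any library of these 2 groups, and its part in the value of Car5a was not tested.

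Of the 8 bicarbonate-using enzymes, all tested in Cpt2L-/- against Rab30L-/-, 1 rose and 2 fell, a share near the 31.4% of all genes that passed, with a median log2 fold change of -0.30 beside 0.00 over all genes. Acacb, the acetyl-CoA carboxylase of the mitochondrial surface, rose by 1.19 (standard error 0.17, edgeR adjusted p = 0.000208). Mccc1 and Pcca, subunits of the carboxylases of leucine and of propionyl-CoA breakdown, fell by 0.75 and 0.55 (edgeR adjusted p = 0.00273 and 0.0120). Cps1 and Pcx, which use the bicarbonate made by Car5a, had log2 fold changes of -0.43 (standard error 0.19, adjusted p = 0.117) and -0.06 (standard error 0.15, adjusted p = 0.801). Against ff;ff livers Acacb did not pass, at a log2 fold change of 0.84 (edgeR adjusted p = 0.304) with overlapping groups. Mccc1 and Pcca were lower there too, at -0.73 and -0.52 (edgeR adjusted p = 0.00481 and 0.0209).

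Among the bicarbonate and proton transporters, 7 of 18 were tested in this contrast, with 1 higher, 1 lower and a median log2 fold change of -0.31, and this share too was near that of all genes. Slc4a4, a sodium bicarbonate cotransporter, rose by 1.31 (standard error 0.22, edgeR adjusted p = 0.000895), and Slc26a1, an exchanger of sulfate and bicarbonate, fell by 1.62 (standard error 0.21, edgeR adjusted p = 0.000133). The same 2 genes had the largest changes of the partner genes against ff;ff, at 1.57 and -1.57. Of the 3 IP3 receptor genes, Itpr1 and Itpr2 both fell by 0.86 (edgeR adjusted p = 0.000695 and 0.000458) and Itpr3 did not pass. Of the 2 receptor phosphatases with a domain like a carbonic anhydrase, Ptprg was tested and did not pass.

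Itpr2 was the 1 partner gene to pass from Cpt2L-/- to DKO, where it rose by 0.66 (standard error 0.14, edgeR adjusted p = 0.0327), beside 2.71% of all genes. It was also the 1 to pass in the interaction, at 0.94 (standard error 0.21, edgeR adjusted p = 0.0202), beside 4.06% of all genes. From Cpt2L-/- to DKO 8 bicarbonate-using enzymes, 7 transporters, 3 IP3 receptors and 1 phosphatase were tested, so 1 call says little about these lists. The rise of Itpr2 from Cpt2L-/- to DKO did not pass in 5 of the 8 fits that left out 1 library. Slc26a1 had the next largest change from Cpt2L-/- to DKO, at 0.55 (adjusted p = 0.126), and passed in limma-voom (adjusted p = 0.0242) and without a low-count filter (adjusted p = 0.0434). No partner gene passed in the 2 contrasts of Rab30 alone, where 0.022% (whole body) and 0.479% (liver) of all genes passed. The largest changes were -0.78 for Slc4a9 and 0.29 for Slc26a4 between Rab30KO and Rab30 Ctrl and 1.48 for Slc4a9 between Rab30L-/- and ff;ff, and the interaction also held -1.23 for Slc4a9, which did not pass. With 1 library left out, Slc4a9 gave 0.95 to 3.63 between Rab30L-/- and ff;ff and -3.38 to -0.14 in the interaction, both farthest from 0 without ff;ff replicate 3, so its size was not settled.

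Markers of other cells were read beside these results, since Car1 and Car2 are abundant in red cells and Car3 in fat and muscle. Of all genes tested in Cpt2L-/- against Rab30L-/- livers, 16% passed lower and 15.3% higher, and the marker counts of this contrast stand beside that. There 4 of the 5 erythroid markers tested were lower and Hba-a2 was higher. All 7 erythroid markers summed to 87.1 to 165 CPM in Cpt2L-/- and 266 to 639 CPM in Rab30L-/- libraries, so that they moved with Car1 and against Car2. The 4 adipocyte markers summed to at most 1.30 CPM and the 5 skeletal muscle markers to at most 1.47 CPM in any library, with Retn at 0 in every group. All 5 Kupffer cell markers were lower in Cpt2L-/-, with sums of 97.2 to 152 against 168 to 495 CPM, and 3 of 5 hepatocyte markers were lower, with sums of 36635 to 47120 against 64965 to 77930 CPM. Of the bile duct markers 1 of 3 tested was lower, and none of the 4 stellate or 5 endothelial markers passed. Against ff;ff livers 3 of 5 hepatocyte, 4 of 5 erythroid and 3 of 5 Kupffer cell markers tested were lower in Cpt2L-/-. So were 1 of 4 bile duct and 1 of 5 endothelial markers tested, and no marker was higher. Of all genes tested in that contrast 11.9% were lower and 11.9% higher. Alb had a log2 fold change of -1.41 there (edgeR adjusted p = 0.000160). The part of these cells in the values of the members was not tested.

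The genes most like each member were taken by Pearson's r of log2 CPM over the 24 libraries, among 12760 genes. They were Wdr73, Cd36 and Sema3b for Car2 (r = 0.957, 0.952 and 0.951), and Akr1c20, Gstt1 and Gsta3 for Car3 (0.961, 0.950 and 0.950). They were Akr1d1, Serpind1 and Ido2 for Car5a (0.963, 0.961 and 0.953), Il1rap, Pecr and Slc22a30 for Car8 (0.976, 0.975 and 0.974), and Ppm1l, Abcb11 and Tedc2 for Car14 (0.939, 0.937 and 0.931). Among the members themselves r was highest for Car3 with Car8, at 0.949, and lowest for Car2 with Car14, at -0.898. With group means removed these were 0.67 and -0.28, and Car2 with Car3 went from -0.70 to 0.28. The 24 points share their libraries and fall into genotype groups, so these values describe the libraries.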

How the data were processed

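RNA was measured in 24 livers, 4 in each of 6 groups taken from the sample labels. Total RNA was purified from frozen liver, and the sequencing company Novogene made the libraries. The deposited tables of the authors hold counts for each gene, not normalized, and FPKM values, which divide each count by gene length and library size. HISAT2, builds GRCm38 and mm10, and DESeq2 are named in the submitters' processing notes, and the counter, annotation and use of strand are not given in the sources used here. Tables of the authors' own comparisons, with fold changes and p-values, and a table of normalized counts were not used.

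Counts were kept by edgeR's filterByExpr, scaled by TMM and tested for each comparison on its own libraries with edgeR 4.0.16 (glmQLFit with robust estimation, glmQLFTest) in R 4.3.3. FPKM was used as deposited, without TMM scaling, to compare levels between genes and for the sums and shares of the family in each group. The smallest library held 11801027 counts. The methods of the study say that mice came from several litters, but the labels do not give the litter or day of each of the 4 livers in a group, so p-values measure the spread between these samples. Alternatives were DESeq2 size factors, the Wald test of DESeq2 1.42.0, limma-voom (limma 3.58.1) with sample quality weights, 1 fit over 24 libraries, a minimum of 10 counts per library, dropping the low-count filter, dropping the fold threshold, and leaving out each library. The tests were tested on simulated counts with planted 2-fold changes. The interaction recovered few of these and was tested with 4-fold changes as well, a size chosen after that result, so smaller interaction differences may have been missed. Replicate numbers follow accession order and pair no libraries. Gene models of GENCODE M21 were used for overlaps, and 98.04% of the genes in the count table had the same coordinates there. Python 3.11.15 and pandas 2.3.3 were used for these tables.

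The members and lists were chosen with earlier results of these data known. The text names the 5 members, all other carbonic anhydrases, partner genes past the thresholds in Cpt2L-/- against Rab30L-/- and the 2 with the largest change in each other tested comparison, and the 3 genes most like each member. Cps1, Pcx, Itpr3 and Ptprg, the overlapping genes Aph1a and BC048644 and the markers Hba-a2, Retn, Alb and Colec11 fall outside this rule and were named after their values were seen. Some genes the rule covers are not reported here.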

Additional observations from a re-analysis of the deposited data

Results flagged for a closer look

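By the interaction term of edgeR's test, the change with deletion of Rab30 differed between livers labelled with and without that of Cpt2 for Car5a and Car14, where 4.06% of all genes passed. The fit held the DKO and ff;ff libraries on which the genes were selected, so it is no independent support. The difference of log2 changes was 1.62 for Car5a (edgeR adjusted p = 0.0347) and 1.51 for Car14 (edgeR adjusted p = 0.0116). The call of Car5a was lost in 10 of the 16 fits that left out 1 library and without a low-count filter. For the 5 members in the 6 groups, none of the 30 groups of 4 libraries held a library beyond Dixon's 95% critical value, which chance passes in about 1 in 20 groups.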

How the results depend on the processing

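All 5 members passed in Cpt2L-/- against Rab30L-/- and against ff;ff, and none in Rab30KO against Rab30 Ctrl, under every alternative and with each library left out. The ff;ff libraries also served to select the genes, so the contrast against them is no independent support. For Rab30L-/- against ff;ff the count of 1 became 0 in 1 fit over all libraries and with at least 10 counts in each, and was 0 or 1 with a library left out. The count lost Car14 without Rab30L-/- replicate 2, 3 or 4 or ff;ff replicate 2, 3 or 4. For DKO against Cpt2L-/- the count of 1 became 3 by DESeq2, 3 by limma-voom and 2 without a low-count filter, and ranged from 0 without Cpt2L-/- replicate 3 to 3 without DKO replicate 3. For the interaction the count of 2 became 1 without a low-count filter, where Car5a had an adjusted p of 0.0987 and more genes were tested. It was 1 or 2 with a library left out: Car5a did not pass without Rab30L-/- replicate 2, 3 or 4, DKO replicate 1, 2 or 4, ff;ff replicate 1, 2 or 3, or Cpt2L-/- replicate 3, and Car8 passed without ff;ff replicate 3. The other causes were not tested.

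Values that did not pass changed sign as follows. By limma-voom the log2 fold change was -0.15 for Car3 in Rab30KO against Rab30 Ctrl, and -0.15 for Car2 and 0.0223 for Car8 in Rab30L-/- against ff;ff. With a library left out, Rab30KO against Rab30 Ctrl gave -0.34 to 0.12 for Car2, -0.13 to 0.58 for Car3, -0.16 to 0.0583 for Car5a, -0.15 to 0.25 for Car8 and -0.39 to 1.01 for Slc26a4. Rab30L-/- against ff;ff gave -0.10 to 0.0813 for Car2, -1.12 to 0.0610 for Car3, -0.23 to 0.10 for Car8 and -0.71 to 0.11 for Car1, and the interaction gave -0.0357 to 1.12 for Car5b.

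Over all genes the number past the thresholds in DKO against Cpt2L-/- was 360, against 1032 by DESeq2, 1535 by limma-voom, 705 without a low-count filter and 114 in 1 fit over all libraries. For Rab30L-/- against ff;ff it was 64, against 298, 239, 240 and 94, and 25 with at least 10 counts in each library. For the interaction it was 571, against 1080 by DESeq2, 1294 by limma-voom and 374 in 1 fit over all libraries. For Rab30KO against Rab30 Ctrl it was 3, against 10 by DESeq2, 1 by limma-voom, 9 in 1 fit over all libraries, 6 without a low-count filter and 0 with at least 10 counts in each. With 1 library left out these counts were 57 to 445 for DKO against Cpt2L-/-, 23 to 93 for Rab30L-/- against ff;ff, 300 to 679 for the interaction and 0 to 4 for Rab30KO against Rab30 Ctrl. The lowest came without Cpt2L-/- replicate 4 (57 and 300) and without Rab30L-/- replicate 4 (23). For DKO against Cpt2L-/- the count was also more than 1.5 times lower without any other Cpt2L-/- library (117, 143 and 229 without replicates 2, 3 and 1) or DKO replicate 1 or 2 (188 and 98). For the interaction this was so without DKO replicate 2 (328), Cpt2L-/- replicate 2 or 3 (365 and 339) or Rab30L-/- replicate 2 or 4 (349 and 362), and for Rab30L-/- against ff;ff without Rab30L-/- replicate 2 (35) or ff;ff replicate 2 (37). With a minimum of 10 counts Car1 and Car5b were no longer tested in comparisons that hold Cpt2L-/- or DKO libraries. Of 35 lists of most similar genes under other settings, 16 kept fewer than 2 of the 3 genes. No paired analysis was possible because the replicate numbers only follow accession order.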
